A study of Mus musculus with 12 samples.

Results

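The genes described here encode the proteins of the mitochondrial ribosome. They were taken as every gene whose symbol is Mrpl, for the large subunit, or Mrps, for the small subunit, followed by a digit, with pseudogene symbols left out. A gene also needed a probe set annotated to its symbol alone, and of several such probe sets the one whose mean over the 12 arrays was highest was used. The rule found 71 genes among the 22180 named genes of the array, 43 of the large and 28 of the small subunit. The RefSeq table lists 78 protein-coding genes with such symbols, and the other 7 (Mrpl30, Mrpl33, Mrpl41, Mrpl43, Mrpl44, Mrpl53 and Mrps6) lay only on probe sets that name several genes and were not analysed here. The symbols follow the gene and not always the place of the protein: Mrps30 and Mrps18a are found in the large subunit, and Mrps36 is a subunit of the alpha-ketoglutarate dehydrogenase complex. Counts and medians by subunit go by the symbol, so Mrps30, Mrps18a and Mrps36 stand with the small subunit in them.

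The mitochondrial ribosome translates the few messenger RNAs of the mitochondrial genome, all of which encode subunits of respiratory complexes I, III and IV or of ATP synthase. Its RNAs come from mitochondrial DNA, while all of its proteins are encoded in the nucleus, made in the cytoplasm and imported. Some of these proteins descend from those of the bacterial ribosome, and others were gained in mitochondria. T cells depend on mitochondrial translation when they are activated and start to proliferate.

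Whole mouse spleen cells were kept for 24 h with or without linoleic acid at 50 µM, a polyunsaturated fat taken up from food, before CD4+ or CD8+ T cells were sorted from them. Total RNA of each sort was hybridized to a single-colour Affymetrix MoGene-2_0-st array, with 3 arrays in each of 4 groups, namely CD4 and CD8 T cells from either culture. Other spleen cells were present throughout the culture, and the labels name no strain, age, genotype or stimulus. The labels do not say that the arrays of a group came from separate mice or cultures, so p-values measure no more than how far these samples scatter, and that scatter may be technical.

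All levels are log2 RMA intensities, and a difference of 1 is a doubling. Since probe sets differ in brightness, levels of different genes were not ranked and were set only against a low-signal filter and a gauge of background. The sorts carried the markers of their labels: the mean of 3 CD4 T cell markers was 8.22 to 8.74 in CD4 arrays and 4.96 to 5.37 in CD8 arrays, and the mean of 3 CD8 markers was 9.70 to 10.13 in CD8 arrays and 6.24 to 7.06 in CD4 arrays. Markers of B cells, 11 of 13 measured, averaged 5.85 to 6.33 on the 4 arrays numbered 1 and 7.07 to 7.68 on the other 8, and those of myeloid cells 4.47 to 4.69 and 5.07 to 5.48. Of the B cell list, Cd79a had group means of 9.28 to 10.06 and Cd79b of 8.65 to 9.04, while Cr2 was lowest at 4.82 to 5.21. RNA of B cell genes was thus present in all 4 groups of sorted T cells, and its share was not estimated. Erythroid markers had no probe set of a single symbol (0 of 4 measured).

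A gauge of background was set on genes that T cells are not known to use. Olfactory and vomeronasal receptor genes, 1394 of them, were taken for it, with a 95th percentile of their means at 5.11. Member means ran from 3.93 to 8.40, and 3 of 71 members, Mrpl27, Mrpl57 and Mrps36, lay below that gauge. Members with means above the gauge also had single arrays below it. Among them were Mrps18c (4.99 to 5.10) and Mrps14 (4.87 to 4.98) on the CD4 linoleic acid arrays. Mrpl20 (5.10 and 4.65) lay below it on the CD8 linoleic acid arrays numbered 2 and 3. Mrps36, at 3.62 to 4.19 on the 12 arrays, also lay below the filter on low genes at 4.28, which left 70 members tested. Its group means were 4.03 ± 0.15 in control and 3.77 ± 0.20 in linoleic acid culture for CD4, and 4.05 ± 0.08 and 3.85 ± 0.21 for CD8 (SD, n = 3 each). Within groups the members varied with an SD of 0.06 to 0.28 and a median of 0.17, against a median of 0.18 over all genes tested.

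Cells cultured with linoleic acid had slightly lower levels of most mitochondrial ribosomal protein genes, in both T cell types, and no single member passed the test. In CD4 T cells 64 of 70 members were lower with linoleic acid, 38 of 43 of the large and 26 of 27 of the small subunit, beside 51.4% of all 14323 genes tested. The median log2 difference was -0.15 for the large and -0.13 for the small subunit, beside -0.0047 over all genes tested. Among CD8 T cells 65 of 70 members were lower, 40 of 43 and 25 of 27, beside 63.1% of all genes, with medians of -0.19 and -0.15 beside -0.06 over all genes. Members lower in both cell types numbered 59 of 70 (84.3%), beside 32.9% of all genes tested, and 0 were higher in both. These counts describe the list, whose genes share the same arrays, and are not independent observations.

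No member had an adjusted p under 0.05 in limma's test with Benjamini-Hochberg adjustment over 14323 genes, in either cell type, where percent called over all genes was 0 as well. At an unadjusted p under 0.05, 10 members were lower in CD4 T cells, 7 of the large and 3 of the small subunit, and 0 were higher, beside 1.84% and 0.768% of all genes. For CD8 the count was 6 members lower, all of the large subunit, and 0 were higher, beside 2.72% and 2.36% of all genes. The interval of a single member's difference was wide beside these medians, with a median 95% half-width of 0.30 for the large and 0.31 for the small subunit. The medians were smaller than these half-widths.

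**Figure D1:**
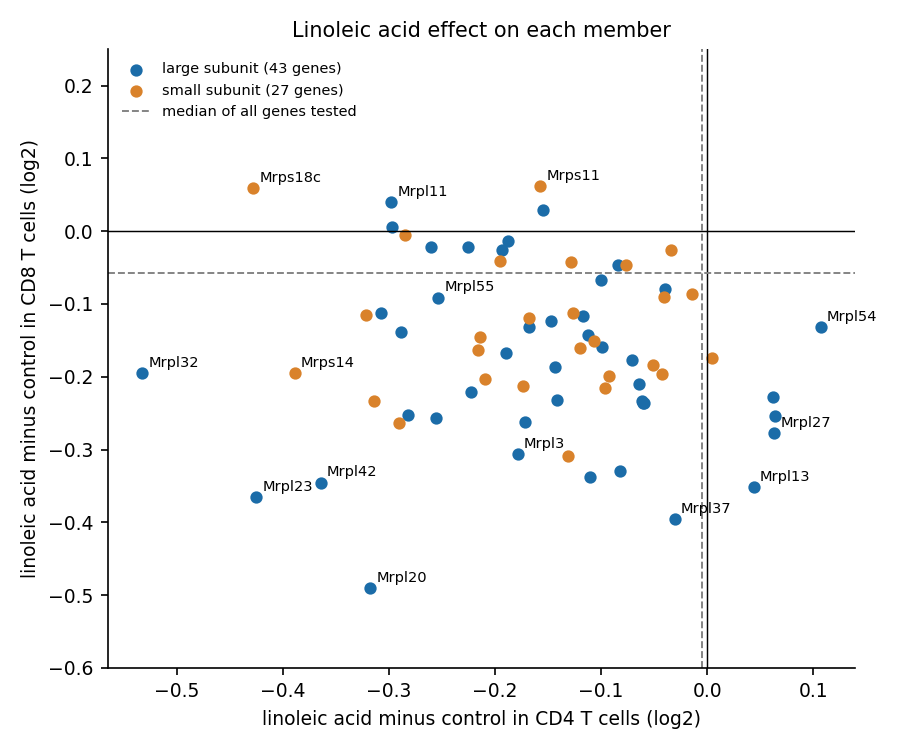
Log2 difference between linoleic acid and control culture for each of the 70 members tested, in CD4 T cells (x axis) and CD8 T cells (y axis), coloured by subunit. Dashed lines mark the median of all genes tested, -0.0047 and -0.06. Most points (59 of 70) lie at the lower left, where both differences are below 0, and none lies in the upper right.

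The array means show where the shift lay. The mean of the large subunit genes was 6.57, 6.40 and 6.52 on the CD4 control arrays numbered 1 to 3 and 6.43, 6.32 and 6.27 on the CD4 linoleic acid arrays. For CD8 T cells it was 6.50, 6.57 and 6.55 in control and 6.52, 6.28 and 6.27 in linoleic acid culture. The groups overlapped in both cell types, through the control array numbered 2 in CD4 and through the linoleic acid array numbered 1 in CD8. The small subunit mean gave 6.50, 6.28 and 6.43 against 6.34, 6.23 and 6.14 in CD4, and 6.37, 6.47 and 6.41 against 6.40, 6.27 and 6.17 in CD8, with the same arrays in the overlap.

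The shift was also read from arrays of the same number. In CD4 T cells the median member difference was -0.16, -0.03 and -0.26 in the pairs numbered 1 to 3, with 58, 43 and 66 of 70 members lower. In CD8 T cells it was 0.06, -0.29 and -0.26, with 24, 66 and 56 members lower, so that most members were higher with linoleic acid in the CD8 pair numbered 1. Members lower in all 3 pairs numbered 36 of 70 (51.4%) in CD4, beside 14.1% of all genes, and 19 of 70 (27.1%) in CD8, beside 21.5%. The CD8 share thus lay near the background. Members whose 3 linoleic acid arrays all lay below the 3 control arrays numbered 20 (28.6%, beside 4.52% of all genes) in CD4 and 9 (12.9%, beside 5.70%) in CD8, and 0 members lay apart in the other direction, beside 2.92% of all genes in CD4 and 3.32% in CD8.

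**Figure D2:**
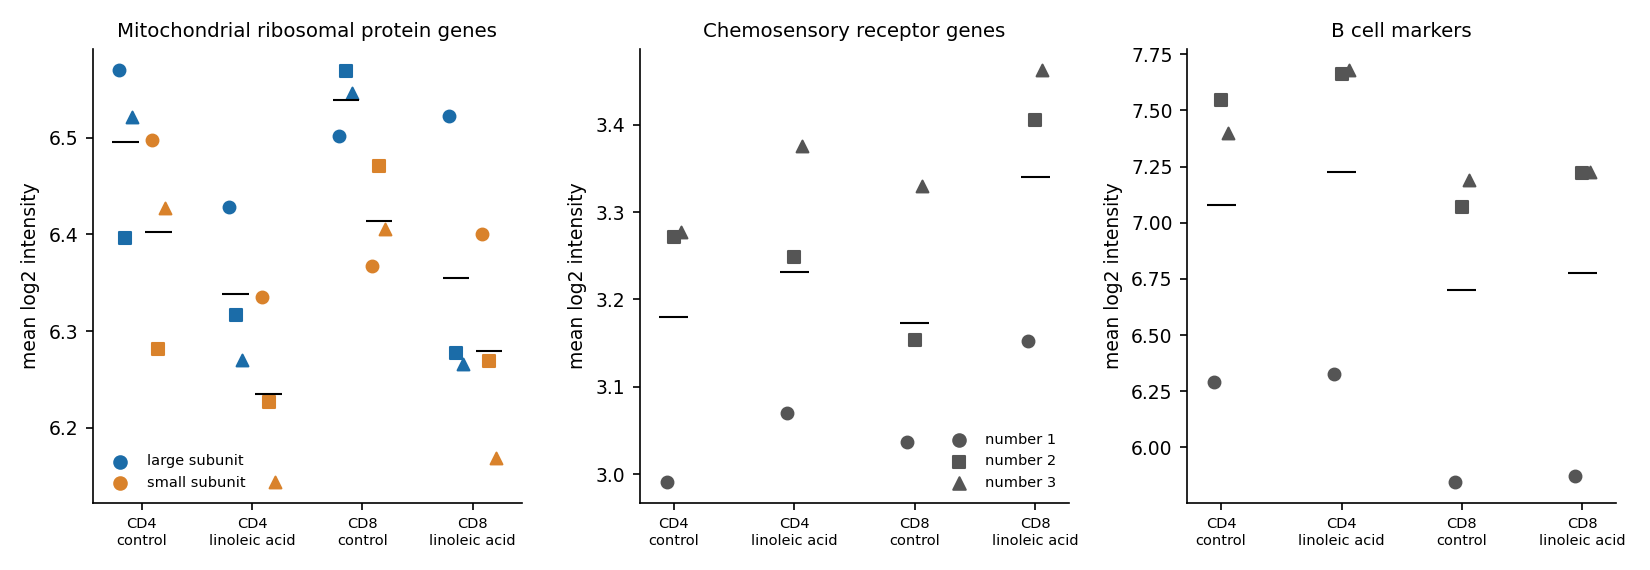
Mean log2 intensity on each array of the large and small subunit genes (left), of chemosensory receptor genes (middle) and of B cell markers (right), by group, with the symbol giving the array's number and the bar the mean of 3 arrays. Linoleic acid arrays numbered 2 and 3 had the lowest means of the large subunit genes (6.27 to 6.32), while the CD8 linoleic acid array numbered 1 (6.52) lay among the controls.

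Several other measures moved beside the members, and their part in the result was not tested. The mean of the chemosensory receptor genes differed with linoleic acid by 0.08, -0.02 and 0.10 in the numbered pairs of CD4. In those of CD8 it was higher by 0.11, 0.25 and 0.13. The 11 B cell markers differed by 0.04, 0.12 and 0.28 in CD4 and by 0.03, 0.15 and 0.04 in CD8, and the 11 myeloid markers by 0.03, 0.12 and 0.01 and by -0.03, 0.26 and 0.31. The 7 T cell markers differed by -0.03, 0.04 and -0.02 in CD4 and by -0.04, -0.12 and -0.14 in CD8. In RNA of sorted cells, fewer cells of a type and less RNA per cell cannot be told apart.

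The count of lower members was taken again without some of the arrays. Without the arrays numbered 1, 2 or 3, taken out together, 62, 68 and 52 of 70 members were lower in CD4, beside 49.9%, 57.4% and 46.1% of all genes. In CD8 they were 67, 53 and 62, beside 63.1%, 58.8% and 62.2%. The count lower at an unadjusted p under 0.05 was less steady, and the share of all genes moved with it. In CD4, where it was 10 beside 1.84%, it was 3 without control array 1 (beside 1.65%), without linoleic acid array 2 (1.17%) or 3 (1.16%) or without all arrays numbered 2 (0.908%). It was 6 without all arrays numbered 1 (2.23%) or 3 (1.38%), and 14 with the replicate number as a block (3.30%). In CD8, where it was 6 beside 2.72%, it was 18 without linoleic acid array 1 and 14 without all arrays numbered 1, when the share of all genes was 12.4% and 7.81%. With the block it was 9 members beside 8.62%, and with the fit on the groups compared alone 2 members beside 1.45%. It was 3 without control array 2 (1.15%) or 3 (2.63%), 2 without linoleic acid array 2 (2.35%) or all arrays numbered 3 (1.28%), and 1 without linoleic acid array 3 (1.09%) or all arrays numbered 2 (0.426%).

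The background in CD8 T cells itself depended on signal. With the filter raised to the 60th percentile, log2 5.17, 77.6% of the genes left were below 0 in CD8 T cells and 51.9% in CD4 T cells. Their medians were -0.11 in CD8 and -0.0060 in CD4. Of the 67 members left, 62 were lower in CD8, with a median of -0.16, and 62 in CD4, with a median of -0.15. In CD8 the members thus lay closer to the median of all genes than in the main fit. With each array centred on its median, 68 of 70 members were lower in CD8, 43 of 43 of the large and 25 of 27 of the small subunit, beside 73.6% of all genes. The medians were -0.24 and -0.21, beside -0.11 over all genes. In CD4 that centring gave 64 of 70 members, beside 49.6% of all genes, with medians of -0.14 and -0.13, beside 0.0014 over all genes.

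Among large subunit members the lowest differences in CD4 T cells belonged to Mrpl32, whose protein is matured by the m-AAA protease of mitochondria before it joins the large subunit. Its levels were 6.99, 6.77 and 6.56 in CD4 control and 6.34, 6.01 and 6.37 in CD4 linoleic acid culture. All 3 treated arrays lay below all 3 control arrays, at a log2 difference of -0.53 ± 0.16 (SE, 1.45-fold lower, 95% interval -0.87 to -0.19, limma adjusted p = 0.9998). The CD8 levels were 6.55, 6.59 and 6.56 against 6.55, 6.52 and 6.05, with a difference of -0.20 ± 0.16 (adjusted p = 0.757) set mainly by the treated array numbered 3.

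Mrpl23, a protein at the exit of the tunnel through which new chains leave the ribosome, had a lower mean with linoleic acid in both cell types. Its levels were 6.92, 6.48 and 6.72 in CD4 control and 6.52, 5.99 and 6.33 in CD4 linoleic acid culture, and 6.84, 6.77 and 6.91 in CD8 control and 6.58, 6.38 and 6.46 in CD8 linoleic acid culture. The CD8 groups did not overlap, and the CD4 groups did only through control array 2 (6.48) and treated array 1 (6.52). The difference was -0.43 ± 0.15 in CD4 (SE, adjusted p = 0.9998) and -0.37 ± 0.15 in CD8 (adjusted p = 0.757) by limma.

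Mrpl20, whose bacterial counterpart binds ribosomal RNA early in assembly, had the lowest difference in CD8 T cells. Its levels were 5.43, 5.69 and 5.41 in CD8 control and 5.30, 5.10 and 4.65 in CD8 linoleic acid culture, with no overlap, at -0.49 ± 0.16 (SE, 1.40-fold lower, 95% interval -0.83 to -0.15, limma adjusted p = 0.757). The CD4 levels were 5.65, 5.68 and 5.39 against 5.30, 5.33 and 5.14, again with no overlap, at -0.32 ± 0.16 (adjusted p = 0.9998). The treated CD8 array numbered 3 was the lowest of the 12 for this gene. It and the treated CD8 array numbered 2 lay below the gauge of background at 5.11.

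Mrpl3, near the peptidyl transferase centre where peptide bonds form, was 6.62, 6.78 and 6.66 in CD8 control and 6.57, 6.28 and 6.28 in CD8 linoleic acid culture (-0.31 ± 0.13, SE, limma adjusted p = 0.757). In CD4 T cells it was 6.77, 6.55 and 6.60 against 6.55, 6.53 and 6.29, where the groups overlapped (-0.18 ± 0.13). Mrpl55 had the smallest within-group SD of the members, 0.06. It was 6.93, 7.02 and 6.90 in CD4 control and 6.73, 6.67 and 6.68 in CD4 linoleic acid culture, at -0.25 ± 0.10 (adjusted p = 0.9998), against -0.09 ± 0.10 in CD8 T cells.

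In the small subunit the smallest p of all members in CD4 T cells belonged to Mrps18c, one of 3 mitochondrial homologues of a single bacterial protein. Its levels were 5.30, 5.44 and 5.64 in CD4 control and 4.99, 5.004 and 5.10 in CD4 linoleic acid culture, a difference of -0.43 ± 0.12 with no overlap (SE, 1.35-fold lower, limma adjusted p = 0.9998). All 3 treated CD4 arrays lay below the gauge of background at 5.11. The CD8 levels were 5.18, 5.04 and 5.22 against 5.22, 5.13 and 5.26 (0.06 ± 0.12). A second probe set of the gene, with a mean of 5.09 beside 5.21, gave another picture in CD8. It read 5.21, 5.12 and 5.27 in control against 4.88, 5.30 and 4.47 in linoleic acid culture for CD4, and 5.44, 5.17 and 5.29 against 4.97, 5.15 and 4.78 for CD8. Its differences were -0.31 in CD4 and -0.33 in CD8 T cells, so the 2 probe sets had the same sign in CD4 and opposite signs in CD8.

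**Figure D3:**
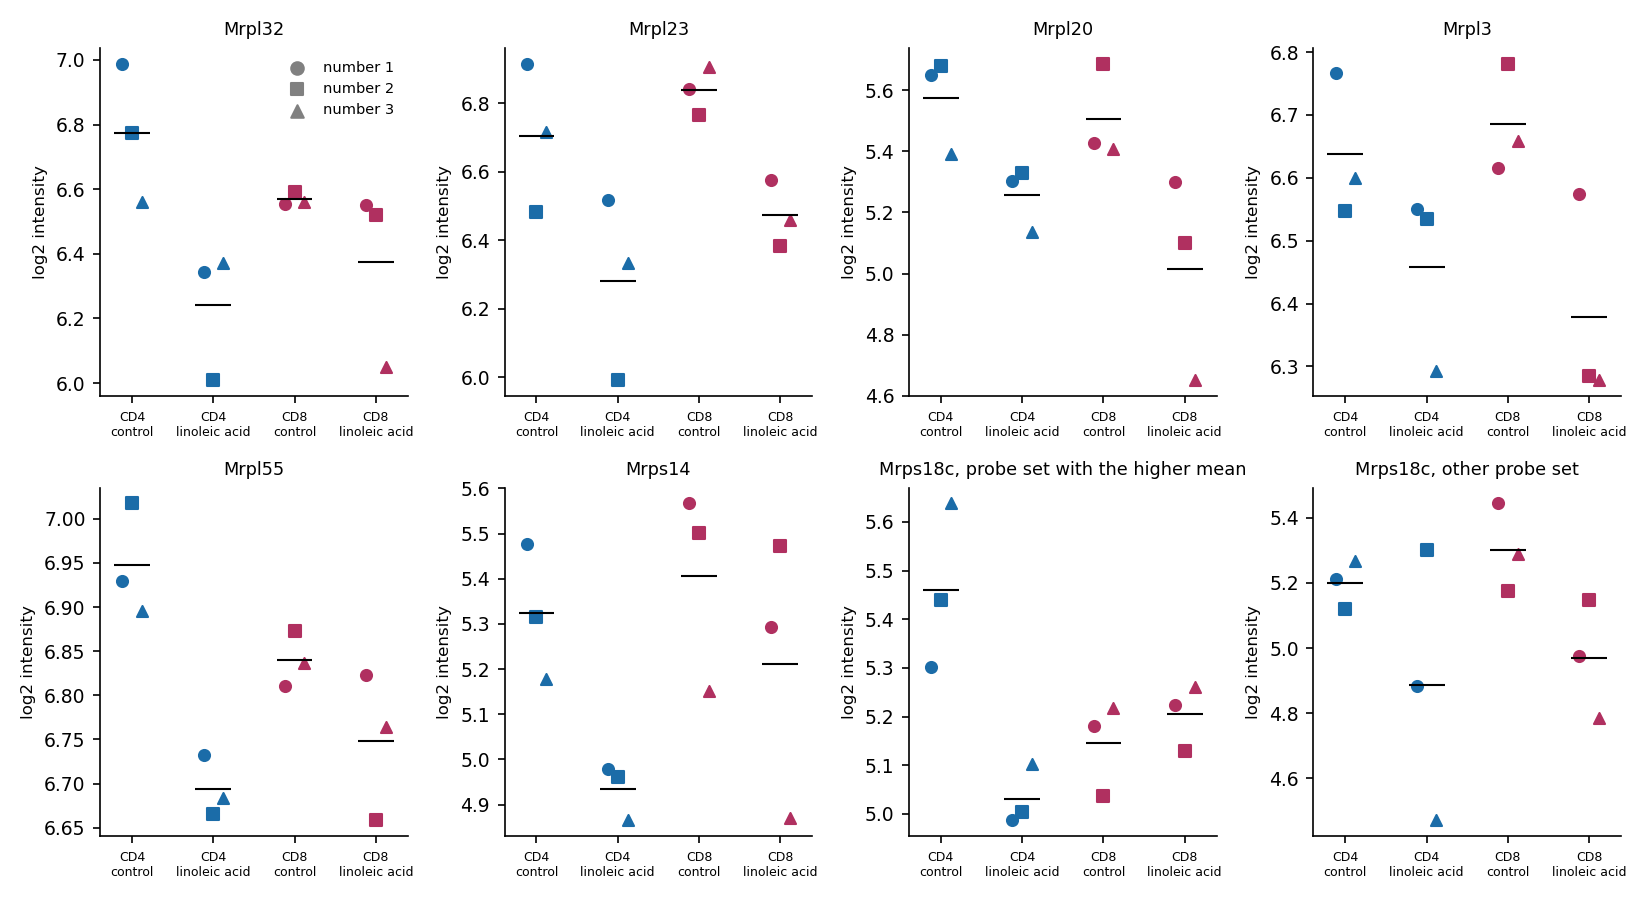
Log2 intensity of 6 members and of both probe sets of Mrps18c on each of the 12 arrays, by group, with the symbol giving the array's number and the bar the mean of 3 arrays. The linoleic acid arrays of Mrpl32, Mrpl20, Mrpl55 and Mrps14 lie below the control arrays in CD4 T cells, and the 2 probe sets of Mrps18c differ in CD8 T cells, at 0.06 and -0.33 between linoleic acid and control.

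Mrps14, a small subunit protein with a bacterial counterpart, was 5.48, 5.31 and 5.18 in CD4 control and 4.98, 4.96 and 4.87 in CD4 linoleic acid culture (-0.39 ± 0.16, SE). Its treated CD4 arrays also lay below the gauge of background at 5.11. The CD8 arrays overlapped (-0.19 ± 0.16). Mrps21 followed in CD4 at -0.32 ± 0.14. In CD8 T cells the small subunit genes with the smallest p were Mrps2 (-0.31 ± 0.16), Mrps15 (-0.21 ± 0.12) and Mrps7 (-0.20 ± 0.12). The adjusted p of these genes in limma was 0.9998 in CD4 and 0.757 in CD8.

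The members above 0 were few and close to it. In CD4 T cells these were Mrpl10, Mrpl13, Mrpl22, Mrpl27, Mrpl54 and Mrps34, up to 0.11 for Mrpl54. In CD8 T cells they were Mrpl11, Mrpl48, Mrpl50, Mrps11 and Mrps18c, up to 0.06 for Mrps11.

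By place in the ribosome, values to both sides of the list's median occurred in the same region. Of the stalk, which recruits the translation factors, Mrpl12 differed by -0.14 ± 0.12 in CD4 and -0.19 ± 0.12 in CD8 (SE), Mrpl11 by -0.30 ± 0.13 and 0.04 ± 0.13, and Mrpl10 by 0.06 ± 0.14 and -0.25 ± 0.14. Around the peptidyl transferase centre Mrpl16 gave -0.11 ± 0.16 and -0.34 ± 0.16, and Mrpl27 0.06 ± 0.17 and -0.28 ± 0.17. At the tunnel exit Mrpl22 gave 0.06 ± 0.18 and -0.23 ± 0.18, and Mrpl24 -0.19 ± 0.15 and -0.03 ± 0.15. Mrpl45, which anchors the ribosome at the inner membrane, gave -0.15 ± 0.12 and -0.12 ± 0.12. Mrpl58, a hydrolase that frees stalled chains, gave -0.07 ± 0.15 and -0.18 ± 0.15.

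In the small subunit Mrps12, at the decoding centre, differed by -0.13 ± 0.16 in CD4 and -0.11 ± 0.16 in CD8 T cells (SE). Genes mutated in human combined respiratory chain deficiencies were Mrps7 (-0.04 ± 0.12 and -0.20 ± 0.12), Mrps16 (-0.03 ± 0.15 and -0.03 ± 0.15), Mrps22 (-0.22 ± 0.13 and -0.16 ± 0.13) and Mrps34 (0.0049 ± 0.14 and -0.17 ± 0.14). The large subunit proteins with an Mrps symbol were Mrps30 (-0.29 ± 0.19 and -0.26 ± 0.19) and Mrps18a (-0.01 ± 0.16 and -0.09 ± 0.16). None of the genes of this paragraph had an unadjusted p under 0.05 in either cell type.

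The members lower in all 3 numbered pairs of both cell types were Mrpl3, Mrpl15, Mrpl18, Mrpl20, Mrpl23, Mrpl32, Mrpl42, Mrps14, Mrps15 and Mrps28, 10 of 70 (14.3%), beside 3.03% of all genes. Mrpl42, gained in mitochondria, was 5.40, 5.53 and 5.26 in CD4 control and 5.22, 4.78 and 5.09 in CD4 linoleic acid, and 5.47, 5.25 and 5.50 in CD8 control and 5.28, 5.16 and 4.76 in CD8 linoleic acid culture. Its difference was -0.36 ± 0.16 in CD4 and -0.35 ± 0.16 in CD8 (SE).

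Promoter sequences are shown for Mrpl32, Mrpl23, Mrpl20 and Mrps18c, the members with the smallest p in either cell type, since nuclear genes of mitochondria are known to share binding motifs for ETS factors such as GABPA, for NRF1 and for YY1. Each line gives the 250 bases before the start used in the RefSeq promoter table on GRCm38.p6, in the direction of the gene, with matches to the motifs searched in capitals. Both strands were searched for exact matches to 1 string of letters for each factor, spelled out with its share of windows further on. None of the strings contains another, but matches to the NRF1 and YY1 letters can overlap at their ends, and NRF1 matches on opposite strands can overlap each other, as they do in Mrpl32.
Mrpl32, chr13:14613038-14613287, minus strand: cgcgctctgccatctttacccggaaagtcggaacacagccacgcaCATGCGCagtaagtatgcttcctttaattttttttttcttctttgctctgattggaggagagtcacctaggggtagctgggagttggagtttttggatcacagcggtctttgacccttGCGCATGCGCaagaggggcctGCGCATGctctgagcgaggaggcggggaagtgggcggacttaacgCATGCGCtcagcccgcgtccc
Mrpl23, chr7:142532782-142533031, plus strand: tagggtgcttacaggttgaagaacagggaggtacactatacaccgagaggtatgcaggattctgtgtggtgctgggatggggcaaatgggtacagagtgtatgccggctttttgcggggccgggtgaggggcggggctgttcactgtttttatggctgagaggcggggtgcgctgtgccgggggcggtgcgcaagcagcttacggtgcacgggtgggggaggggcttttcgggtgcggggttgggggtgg
Mrpl20, chr4:155802628-155802877, plus strand: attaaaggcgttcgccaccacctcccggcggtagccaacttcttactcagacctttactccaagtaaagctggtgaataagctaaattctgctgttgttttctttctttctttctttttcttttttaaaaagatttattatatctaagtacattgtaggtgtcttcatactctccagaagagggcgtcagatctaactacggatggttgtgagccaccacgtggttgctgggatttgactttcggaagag
Mrps18c, chr5:100798509-100798758, plus strand: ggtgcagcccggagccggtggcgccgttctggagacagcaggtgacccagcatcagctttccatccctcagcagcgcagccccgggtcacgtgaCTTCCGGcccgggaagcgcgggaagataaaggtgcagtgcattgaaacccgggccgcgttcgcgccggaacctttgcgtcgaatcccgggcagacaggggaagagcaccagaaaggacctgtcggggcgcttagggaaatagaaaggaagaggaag

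Mrpl32 held 5 matches to the NRF1 letters, the outermost starting 205 and 21 bases before the start, and Mrps18c held 1 match to the ETS letters, 156 bases before it. Mrpl23 and Mrpl20 held none of the 3. For Mrpl23 the start used lies 565 bases inside the span that RefSeq gives for the gene, so bases before its outermost start were not searched. The GC content of the 250 bases was 56.0% for Mrpl32, 62.0% for Mrpl23, 41.6% for Mrpl20 and 63.6% for Mrps18c. Genes with and without these letters were thus both among the members with the smallest p.

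Over the members, 62 genes had a RefSeq window, 68 windows in all, of 300 bases from 250 before to 50 after the start. The ETS letters, CCGGAAG, stood in 33.8% of these windows, beside 15.1% of the windows of genes tested and 8.86% of all 32851 windows. The share of windows with the YY1 letters, which were taken as ATGGCGG, was 17.6%, beside 6.90% and 4.05% in the same order. For NRF1, whose binding site was represented here by the letters GCGCATG, the share was 10.3%, beside 5.999% and 3.91%. For comparison, the letters of the TATA box, TATAAA, were counted in the same windows. They stood in 7.35%, beside 8.51% and 13.6%. By subunit, the NRF1 letters stood in 14.3% of large subunit windows (6 of 42) and in 3.85% of small subunit windows (1 of 26). The NRF1 share of the small subunit thus lay below that of genes tested. The YY1 letters stood in 14.3% and 23.1%. Cytoplasmic ribosomal protein genes (61 windows) held the ETS letters in 37.7%, the YY1 letters in 16.4%, the NRF1 letters in 13.1% and the TATA letters in 9.84%, so the shares of the first 3 were also above those of genes tested there. Of the 62 genes, 28 held none of the ETS, NRF1 and YY1 letters, 27 held 1 kind, 6 held 2 kinds and Mrpl22 held all 3 kinds.

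**Figure D4:**
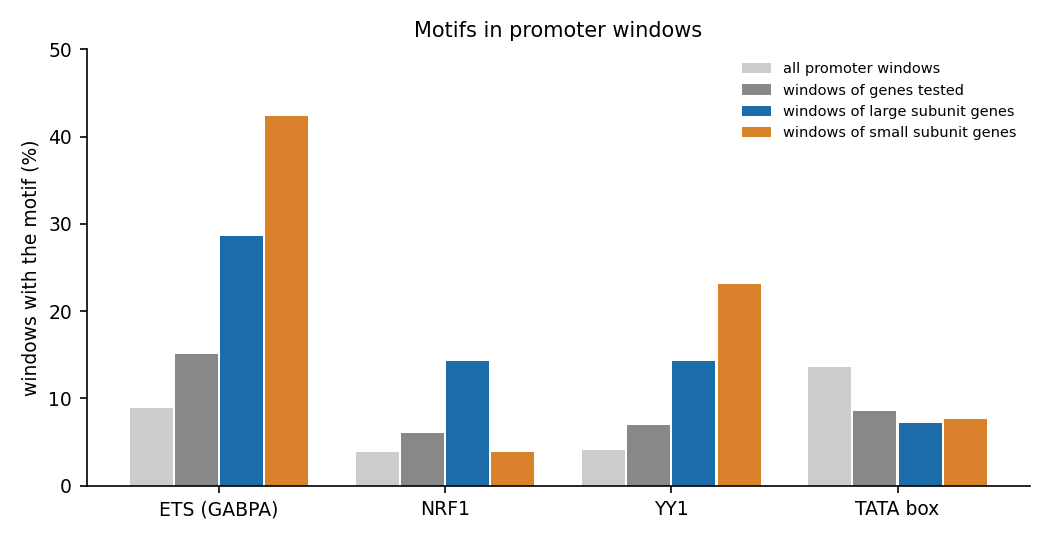
Share of promoter windows of 300 bases that hold the letters of each motif (y axis, percent), for all windows, windows of genes tested and windows of the large and small subunit genes. The ETS bars of the large (28.6%) and small subunit (42.3%) stand above that of genes tested (15.1%), and the TATA bars (7.14% and 7.69%) lie below it (8.51%). The NRF1 bar of the large subunit (14.3%) stands above that of genes tested (5.999%), and that of the small subunit (3.85%) lies below it.

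The differences with linoleic acid were set beside these letters, as a description. Members with the ETS letters (23 genes) had a median of -0.13 in CD4 and -0.16 in CD8 T cells, and those without (38 genes tested) had -0.16 and -0.15. Members with the NRF1 letters (7 genes) had -0.06 and -0.21, beside -0.16 and -0.14 without. Members with the YY1 letters (12 genes) had -0.10 and -0.21, beside -0.17 and -0.15. A match is a description of letters and shows no bound factor.

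The effect of linoleic acid was then compared between cell types as the CD4 minus the CD8 difference. The median was 0.0012 for the large and -0.014 for the small subunit, beside 0.04 over all genes, and 37 of 70 members lay below 0, beside 42.9% of all genes. With arrays centred 20 of 70 lay below 0, beside 33.0%. No member passed the test (0% of all genes did), and 1 was lower at an unadjusted p under 0.05, beside 1.42% of all genes. This was Mrps18c at -0.49 ± 0.16 (limma adjusted p = 0.953), for which the second probe set gave 0.02. Mrpl11 (-0.34 ± 0.19), Mrpl13 (0.40 ± 0.24) and Mrpl10 (0.32 ± 0.20) followed in the large subunit, and Mrps33 (-0.28 ± 0.19) and Mrps11 (-0.22 ± 0.15) in the small. The second probe set of Mrpl10 gave -0.04. Mrps34 lay highest of the small subunit at 0.18 ± 0.20.

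In control culture the members lay to both sides of 0 between CD8 and CD4 T cells. The median CD8 minus CD4 difference was 0.06 for the large subunit, with 29 of 43 genes higher in CD8, and -0.0004 for the small subunit, with 13 of 27 higher, beside a median of 0.0014 and 50.4% higher over all genes. No member passed the test, beside 1.95% of all genes, and the smallest difference called among all genes was 0.44 in size. The largest member differences were below that: Mrpl37 at 0.30, Mrpl58 at 0.28 ± 0.15, Mrpl10 at 0.27 ± 0.14 and Mrpl28 at -0.28 ± 0.16 in the large subunit, and Mrps18b at 0.26, Mrps15 at 0.26 ± 0.12 and Mrps7 at 0.23 ± 0.12 in the small. The second probe set gave -0.04 for Mrpl10 and 0.15 for Mrps18b. Mrps18c, at -0.31 ± 0.12 (limma adjusted p = 0.318), was the only member with an unadjusted p under 0.05, beside 4.39% of all genes lower at that level, and its second probe set gave 0.10.

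In linoleic acid culture the medians were 0.04 for the large and 0.02 for the small subunit, beside -0.02 over all genes. Members higher in CD8 numbered 25 of 43 and 15 of 27, beside 45.9% of all genes, and no member passed, beside 2.03% of all genes. Mrpl35 was higher in CD8 at 0.28 ± 0.12 (limma adjusted p = 0.392), the only member with an unadjusted p under 0.05, beside 4.33% of all genes higher at that level. With the array number as a block 3 members were higher at that level, Mrpl35, Mrpl24 and Mrps14, beside 989 of all 14323 genes. Without CD8 linoleic acid array 1 the count was 0 higher, beside 723 of 14323 genes, and 6 lower, beside 12.9% of all genes. Mrpl24 (0.28 ± 0.15), Mrpl16 (-0.27 ± 0.16) and Mrpl13 (-0.28) were next in the large subunit, and Mrps11 (0.21 ± 0.11), Mrps15 (0.22 ± 0.12), Mrps14 (0.28 ± 0.16) and Mrps5 (-0.17) in the small. The second probe set of Mrps5 gave 0.10. Mrps15 was thus above 0 by similar amounts in both cultures, 0.26 and 0.22. The comparisons between cell types share arrays with those of linoleic acid, through the control groups or the treated groups, so their values are given side by side and not combined.

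**Figure D5:**
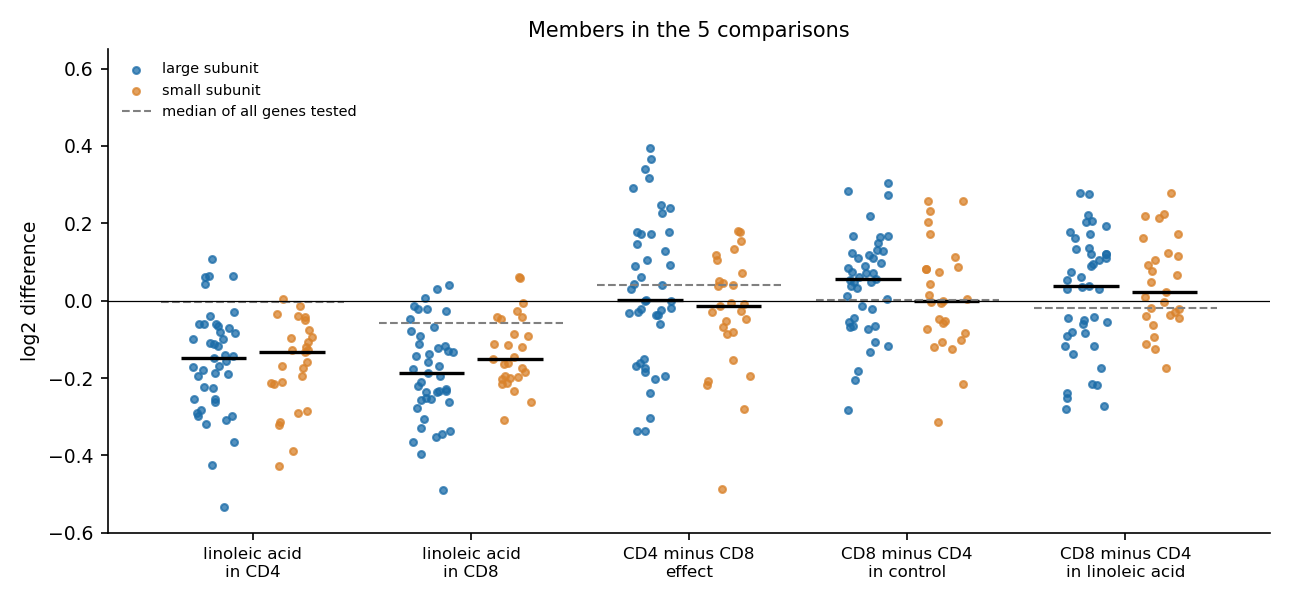
Log2 differences of the 70 members in 5 comparisons, by subunit, with the median of each subunit as a bar and the median of all genes tested as a dashed line. The members lie mostly below 0 for linoleic acid in both cell types (medians -0.15, -0.13, -0.19 and -0.15) and around 0 in the other 3 comparisons.

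The other genes of mitochondrial translation were described from lists of known members. Their counts stand beside 51.4% of all genes lower with linoleic acid in CD4 (median -0.0047) and 63.1% in CD8 (median -0.06). Mtrf1 and Mterf1a, named from these lists here and below, had means of 4.34 and 4.56 over the 12 arrays. Both lay below the gauge of background at 5.11. Of mitochondrial ribosome genes with other symbols, Dap3, Ptcd3 and Gadd45gip1 were tested, and 3 of 3 were lower with linoleic acid in CD4 (median -0.22) and 2 of 3 in CD8 (-0.10). Ptcd3 lay at -0.30 ± 0.17 in CD4, Dap3 at -0.22 ± 0.15 in CD4 and -0.10 ± 0.15 in CD8, and Gadd45gip1 at -0.28 ± 0.12 in CD8. Of 26 genes of ribosome assembly and RNA modification, 20 were lower in CD4 and 20 in CD8, each with a median of -0.11, led by Fastkd2 (-0.36 ± 0.16) and Mrm3 (-0.31 ± 0.15) in CD4 and by the GTPase Mtg2 (-0.39 ± 0.17) and Mpv17l2 (-0.30 ± 0.17) in CD8. Of 14 translation factors, 10 were lower in CD4 (median -0.05) and 11 in CD8 (-0.17), with the initiation factor Mtif2 at -0.18 ± 0.13 and the recycling factor Mrrf at -0.21 ± 0.16 in CD4, and the release factor Mtrf1 at -0.32 ± 0.12 and Lrpprc, which stabilizes mitochondrial messenger RNA, at -0.27 ± 0.13 in CD8.

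Of 19 genes that charge mitochondrial transfer RNA, 13 were lower with linoleic acid in CD4 (median -0.05) and 18 in CD8 (-0.17). The share of all genes lower was 51.4% in CD4 and 63.1% in CD8, so it was also larger in CD8. The arginyl-tRNA synthetase Rars2 (-0.34 ± 0.13) and the prolyl-tRNA synthetase Pars2 (-0.24 ± 0.13) had the smallest p in CD4, and the seryl-tRNA synthetase Sars2 (-0.41 ± 0.14) and Pars2 (-0.30 ± 0.13) in CD8. Of 15 genes that copy, transcribe or process the mitochondrial genome, 12 were lower in CD4 (-0.11), with Mterf1a at -0.45 ± 0.24 and Ssbp1 at -0.30 ± 0.17, and 15 in CD8 (-0.15), with Mterf2 at -0.56 ± 0.17 and Polg2 at -0.27 ± 0.16. None of the genes of these lists passed the test for linoleic acid in either cell type.

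Of 9 nuclear regulators of mitochondrial genes tested, 3 were lower with linoleic acid in CD4 (median 0.05), beside 51.4% of all genes. In CD8 8 were lower (-0.16), beside 63.1% of all genes. The CD4 minus CD8 difference was above 0 for 9 of 9 (median 0.23), beside 57.1% of all genes, with none past the test. Ppargc1b, a coactivator of mitochondrial genes, differed by -0.43 ± 0.13 in CD8 (limma adjusted p = 0.757) and by 0.40 ± 0.18 in the CD4 minus CD8 difference (adjusted p = 0.953). Gabpb1, which partners the ETS factor GABPA, gave -0.26 ± 0.12 in CD8 and 0.32 ± 0.17 in that difference. Myc gave 0.21 ± 0.15 and Nrf1 0.17 ± 0.13 in CD4. The other genes with the smallest p in the CD4 minus CD8 difference were Mtrf1 (0.35 ± 0.17), Guf1 (0.30 ± 0.20), Mtg1 (-0.33 ± 0.21), Mterf3 (0.24 ± 0.15), Rars2 (-0.33 ± 0.18), Wars2 (0.27 ± 0.17), Polg2 (0.40 ± 0.22), Mterf2 (0.36 ± 0.23), Ptcd3 (-0.39 ± 0.25) and Gadd45gip1 (0.12 ± 0.16).

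Between cell types 1 gene of these lists passed, in control culture, where 1.95% of all genes tested did. Myc, a growth regulator that also acts on genes of ribosomes and mitochondria, was 7.43, 7.59 and 7.48 in CD4 control and 8.05, 8.55 and 8.13 in CD8 control, and it was higher in CD8 by 0.74 ± 0.15 (SE, limma adjusted p = 0.0177). The call was lost without CD4 control array 1 (adjusted p = 0.0691), CD8 control array 2 (0.0995) or CD4 control array 3 (0.072), and without all arrays numbered 2 (0.349) or 3 (0.17). In linoleic acid culture Myc was 7.45, 7.84 and 7.83 in CD4 and 8.05, 8.26 and 8.04 in CD8 (0.41 ± 0.15, adjusted p = 0.273).

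The other genes of these lists with the smallest p in control culture, none of them past the test, were Ppargc1b (0.36 ± 0.13), Fars2 (0.34 ± 0.12), Noa1 (0.34 ± 0.14), Yars2 (0.33 ± 0.13), Tfb1m (0.32 ± 0.16), Lrpprc (0.28 ± 0.13), Mtrf1 (0.25 ± 0.12) and Gadd45gip1 (0.12 ± 0.12), above 0 in CD8. Mterf1a (-0.43 ± 0.24), Trmt10c (-0.29 ± 0.15) and Dap3 (-0.29 ± 0.15) lay below 0.

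In linoleic acid culture 3 genes did not pass in the fit without a block and passed with the array number as a block. Over all 14323 genes tested, 291 passed without the block, 798 with it and 322 without CD8 linoleic acid array 1. Mtg1, a GTPase of large subunit assembly, was 6.11, 5.68 and 5.78 in CD4 and 6.33, 6.14 and 6.54 in CD8 (0.48 ± 0.15, limma adjusted p = 0.151, and 0.0257 with the block). Tars2, the threonyl-tRNA synthetase, was 7.54, 7.52 and 7.42 in CD4 and 7.32, 7.05 and 6.87 in CD8 (-0.41 ± 0.12, adjusted p = 0.141, 0.0425 with the block and 0.0359 without CD8 linoleic acid array 1). Polg, the polymerase that copies mitochondrial DNA, was 6.97, 6.57 and 6.61 in CD4 and 6.42, 6.24 and 5.96 in CD8 (-0.51 ± 0.18, adjusted p = 0.248, and 0.0195 with the block). The groups did not overlap for any of the 3. Gabpb1 (-0.39 ± 0.12), Polg2 (-0.33 ± 0.16), Fastkd2 (0.38 ± 0.16), Ptcd3 (0.29 ± 0.17), Nars2 (0.28 ± 0.13), Mtif2 (0.23 ± 0.13), Mtfmt (0.18 ± 0.12) and Dap3 (-0.16 ± 0.15) did not pass.

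Beside the members, 2 related gene families gave a scale for the shift with linoleic acid. Over all genes tested, 51.4% were lower in CD4 (median -0.0047) and 63.1% in CD8 (median -0.06). Genes of the cytoplasmic ribosome, 60 tested, had 51 lower in CD4 with a median of -0.09 and 40 lower in CD8 with a median of -0.02. In CD8 their median was thus not below that of all genes. Nuclear genes for subunits of respiratory complexes I, III and IV and of ATP synthase, 69 tested, had 63 lower in CD4 with a median of -0.20 and 59 lower in CD8 with a median of -0.11. The difference between these families and the members was not tested.

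Probe sets limit how far single genes can be read. Among the 9 members with 2 probe sets of their own, the 2 had the same sign with linoleic acid for 8 of 9 in CD4 and 7 of 9 in CD8. The exceptions were Mrpl10 in CD4 (0.06 and -0.19), and Mrps18c (0.06 and -0.33) and Mrps5 (-0.09 and 0.14) in CD8. The members lie on 17 chromosomes, with 11 of them on chromosome 11 and 8 on chromosome 17.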

How the data were processed

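RNA of 12 sorts was measured on 12 single-colour arrays, 3 in each of 4 groups taken from the labels. The deposited values are log2 intensities made by the authors with RMA, per the submitters' processing notes, which corrects background, normalizes quantiles and summarizes probes. Software and genome build of the probe sets were not given in the sources used here. The values were used as deposited. Of 41345 probe sets, 23521 had 1 symbol and named 22180 genes. Genes with a mean under the 40th percentile of probe set means, log2 4.28, were left out, which left 14323 tested.

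Each of the 5 comparisons was fitted with limma 3.58.1 (lmFit, eBayes, two-sided) in R 4.3.3 on all 12 arrays, as a difference of group means, with Benjamini-Hochberg adjustment over 14323 genes and a threshold of 0.05. The script was tested on simulated data. The number of arrays limits the precision. Members are summarized by counts and medians, with no set test. The members and lists were chosen with earlier results of these data known. The genes named were the 3 members of each subunit with the smallest p and those with the highest and lowest difference in each comparison, members known for their place in the ribosome, and the 2 genes of each other list with the smallest p. Other members are named where a count or a pattern is broken down, after their values were seen. Promoter windows came from RefSeq tables of GRCm38.p6.

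The meaning of the array numbers, 1 to 3 in each group, is not stated. Across genes, the deviations of arrays that share a number correlated between the groups compared at 0.61, 0.19 and 0.32 for linoleic acid in CD4, at 0.43, 0.19 and 0.42 for linoleic acid in CD8, and at 0.58, 0.26 and 0.52 for CD8 against CD4 in linoleic acid culture. On this evidence of the data alone, these comparisons were treated as paired in the fit with the number as a block. The block was fitted for all 5 comparisons and is an alternative. Differences, SEs and p-values are from the fit without the block unless another setting is named. Alternatives were the block, 2 other filters, the groups compared alone, the mean of a gene's probe sets, centred arrays, another variance prior, subunits assigned by place in the ribosome, and arrays left out singly. Leaving out all arrays of a number was chosen after seeing the data, since B cell and myeloid markers were lower on the arrays numbered 1.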

Additional observations from a re-analysis of the deposited data

How the results depend on the processing

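No member passed the threshold in any of the 5 comparisons under any alternative that was run, with adjusted p ranging from 0.558 to 1 for linoleic acid in CD4 and from 0.182 to 1 in CD8. With single arrays or all arrays of a number left out, the median of the large subunit ran from -0.22 to -0.11 with linoleic acid in CD4, from -0.28 to -0.12 in CD8, from -0.051 to 0.16 for the CD4 minus CD8 difference, from -0.00267 to 0.084 for CD8 against CD4 in control and from -0.0385 to 0.0983 in linoleic acid culture. The median of the small subunit ran from -0.23 to -0.0939, -0.23 to -0.0891, -0.13 to 0.0857, -0.0614 to 0.081 and -0.0397 to 0.11 in that order, and 0 members passed in each of these. For CD8 against CD4 in linoleic acid culture the small subunit median of 0.023 was 0.0663 with the mean of a gene's probe sets and -0.0085 with centred arrays, and the cause was not tested.

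Named genes near 0 changed sign in some alternatives. Mrpl10 gave -0.0605 in CD4 with the mean of its probe sets, and Mrpl11 gave -0.0166 in CD8 with centred arrays. With arrays left out, which leaves fewer samples, the range in CD4 was -0.0398 to 0.19 for Mrpl10, -0.25 to 0.0122 for Mrpl16, -0.11 to 0.25 for Mrpl22, -0.33 to 0.00611 for Mrpl24, -0.0607 to 0.19 for Mrpl27, -0.20 to 0.0312 for Mrpl58, -0.16 to 0.14 for Mrps16, -0.0742 to 0.0722 for Mrps18a, -0.15 to 0.10 for Mrps34 and -0.13 to 0.00914 for Mrps7. In CD8 it was -0.0178 to 0.14 for Mrpl11, -0.0976 to 0.0744 for Mrpl24, -0.25 to 0.0193 for Mrpl45, -0.29 to 0.0512 for Mrps12, -0.0888 to 0.0452 for Mrps16 and -0.24 to 0.17 for Mrps18a. The range was -0.14 to 0.42 for Mrps34 in the CD4 minus CD8 difference and -0.31 to 0.0312 for Mrps5 in CD8 against CD4 in linoleic acid culture.

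The replicate number as a block called no member and left each member's difference as it was, and among the other genes named it changed no call but those of Mtg1, Tars2 and Polg. For CD8 against CD4 in control culture the arrays of a number correlated at 0.54, -0.013 and 0.42. The data thus gave less evidence of pairing for that comparison. The block was fitted for it too, and Myc stayed past the threshold. With 3 arrays a group the median 95% half-width of a member's difference was 0.30 for the large and 0.31 for the small subunit.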
